A study of Mus musculus and Homo sapiens with 18 samples.

Results

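The comparison described here set dCas9 supplied transiently against dCas9 supplied from the genome, with the same guide, Nanog-sg3, at the same amount. Its members come from 4 of the 18 samples of the series. These are the transient immunoprecipitate (IP), the input of the same transient cells, and the IP libraries of stable cells at 20 ug of guide. The members are the 27941 peaks of these 4 lists, out of 53617 peaks in the 16 lists of the series used here. The transient library came from wild-type V6.5 cells given 20 ug of the Nanog-sg3 guide together with 20 ug of dCas9, and its input sample was taken without antibody. Both stable libraries came from V6.5 cells carrying an integrated dCas9 gene that were given 20 ug of the guide alone. V6.5 is a mouse embryonic stem (ES) cell line of the labelled strain C57BL/6-129, and all 3 IPs used an antibody against the HA tag of dCas9. The labels do not say whether the stable line is 1 clone or what share of the transient cells took up dCas9. They also do not say how much dCas9 protein either kind of cell held. Outside these 4 samples, the IP list of stable cells given 2 ug of Nanog-sg3 served as a further reference. The list of another guide, Nanog-sg2 at 20 ug, was used for a shared position only.

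dCas9 is a catalytically inactive Cas9. It is led to DNA by a guide RNA, first reading the short protospacer-adjacent motif and then pairing the guide with the DNA strand from the end next to that motif, and it holds the DNA without cutting it. ChIP followed by sequencing therefore records where the protein stayed bound, at the site the guide was designed for and at other sites with partial pairing. The gene Nanog, for which the guide is named, is known for keeping ES cells pluripotent, through the homeobox protein it codes for. A peak is an interval in which a peak caller found more reads than expected, so its width depends on the caller and the library as well as on the length of DNA that was bound.

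The transient list held many more and much narrower peaks than either stable list. It had 16119 peaks, against 5957 and 5862 in the first and second stable library, a ratio to the stable mean of 2.73. The DNA these peaks covered differed far less: the transient peaks covered 7.13 Mb, against 5.74 and 6.36 Mb in the stable libraries, a ratio to the stable mean of 1.18. The stable libraries averaged 5909.5 ± 67.2 peaks and 6.05 ± 0.438 Mb (mean ± SD, n = 2). With 1 transient library there is no measure of spread in that arm, so no test was made between the arms here or below, and values of the 2 stable libraries are set beside each other as the only replicate difference at hand. The labels do not say whether these 2 libraries came from separate cultures, so their difference may be technical. No list gives read counts, so the depth behind these numbers is unknown. The numbers that name the peaks skip values in every list, reaching 24074 in the transient list, against 13680 and 15070 in the stable lists, and no source states why. The transient and second stable lists are named as filtered, and the first stable list is not. The 2 stable libraries therefore also differ in this label.

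The input of the transient cells gave almost no peaks. Its 3 peaks lay at chr11:118679866-118680569 (mm9, as are all positions here), chr3:137433133-137433655 and chr6:113809741-113810519, with the authors' peak score at 54.88, 55.76 and 73.73. None of them overlapped a peak of the transient IP or of either stable library. The nearest transient IP peaks were 89.0, 93.1 and 241.3 kb away. An input list for the stable Nanog-sg3 libraries was not analysed here.

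Transient peaks were narrow across the whole list. Their median width was 365 bp with quartiles of 269 and 528 bp, against stable medians of 859 and 946 bp, a difference from the stable mean of -537.5 bp. The stable medians differed by less than that, averaging 902.5 ± 61.5 bp (SD, n = 2). Peaks under 500 bp made up 72.2% of the transient list, against 10.7% and 7.81% of the stable lists. Peaks of 2000 bp or more numbered 13 in the transient list, against 268 and 446 in the stable lists. The widest transient peak measured 2430 bp, a width that 128 and 217 stable peaks exceeded.

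The width difference was present at every level of the authors' score. The median width grew with each range of score in the transient and the first stable list, and in the second stable list from the range of 75 to 100 on, so widths were compared in ranges of score and of rank. At scores of 50 to 75 the median width was 311 bp in the transient list, against 734 and 816.5 bp in the stable lists, and at scores of 500 or more it was 723 bp, against 1080 and 1167.5 bp. A common scale of scores across lists is not established, but ranks gave the same order: the 100 highest-scoring peaks had a median width of 720.5 bp in the transient list, against 1075.5 and 1118 bp in the stable lists. Cutting the transient list to its 5862 highest scores, the length of the shorter stable list, left a median width of 435 bp and 3.09 Mb covered, which is less than either stable library covered.

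**Figure D1:**
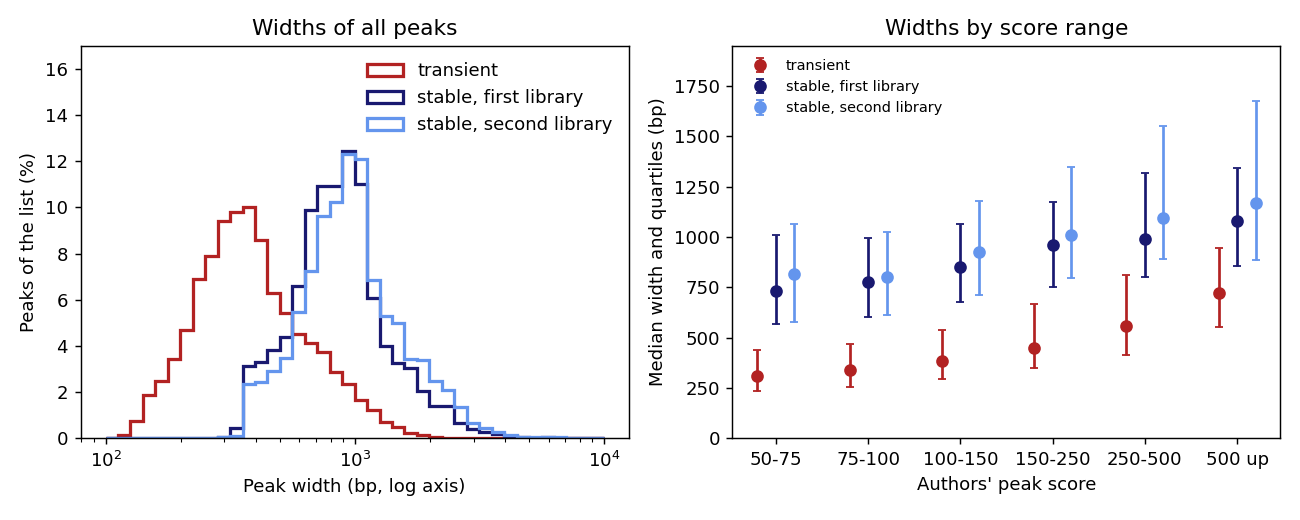
Left, the share of each list's peaks (%) by peak width (bp, log axis) for the transient and the 2 stable 20 ug Nanog-sg3 libraries; right, median width with quartiles (bp) by range of the authors' score. The transient widths lie to the left of both stable lists, with a median of 365 bp against 859 and 946 bp, and are lower in all 6 score ranges.

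The same positions were narrower in the transient list. Positions where 1 transient peak and 1 stable peak overlapped each other and no other numbered 4187 for the first and 4394 for the second stable library. The transient peak was the narrower one at 98.8% and 98.9% of them. Its median width was 392 bp against 901 bp for its partner in the first library, and 428 bp against 966 bp in the second, so that the stable peak was 2.14 and 2.10 times as wide by the median ratio. Transient peaks lay entirely inside the stable peak at 90.9% and 91.6% of these positions. For comparison, among 3607 such positions between the stable libraries the second library's peak was 0.998 times as wide by the median ratio, and the first library's peak was the narrower one at 49.6%.

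Transient peaks sat at the middle of the stable ones. The median distance between centres was 73.5 bp against the first and 77.5 bp against the second stable library, close to the 83.5 bp between the stable libraries, and the transient centre lay toward higher coordinates at 50.8% and 49.5% of the positions. Widths kept their order: over these positions the Spearman rho of transient and stable widths was 0.61 and 0.62, against 0.69 between the stable libraries. Scores kept it less, with rho at 0.34 between the transient library and each stable one, against 0.62 between the stable libraries. These correlations describe positions, which share their libraries and are not replicates, and the differences between them were not tested.

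The next question was how often a wide stable peak appeared as several transient ones. A peak was called split when it overlapped 2 or more peaks of the other list by at least 1 bp. In the first stable library 174 of 5957 peaks were split, 2.92% of the list (exact Clopper-Pearson 95% interval 2.51 to 3.38%), and in the second 219 of 5862, 3.74% (3.27 to 4.25%). Intervals here and below cover counting error only. Between the stable libraries splitting was rarer, at 0.201% (12 peaks) of the first library's peaks against the second and 0.324% (19 peaks) of the second's against the first. The reverse was rarer still, as 3 and 1 of the 16119 transient peaks, 0.0186% and 0.0062%, overlapped 2 peaks of the first or second stable library. It had little room to occur, because transient peaks were narrow, with a median of 365 bp. Only 69 and 77 gaps between neighbouring stable peaks were under 1000 bp, against 633 in the transient list. This also left less room for splitting between the stable libraries. Neither the reverse share nor that between the stable libraries is therefore a like measure for the splitting of stable peaks by the transient list.

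Splitting was concentrated in wide stable peaks. A wider peak also has more room to overlap 2 or more transient peaks, and the part of this in the shares was not tested. None of the 636 and 458 stable peaks under 500 bp was split, and of those from 1000 bp to under 1500 bp 2.95% and 2.34% were. From 2000 bp to under 3000 bp the shares were 26.9% (59 of 219) and 24.3% (89 of 367), and at 3000 bp or more 36.7% (18 of 49, interval 23.4 to 51.7%) and 38.0% (30 of 79, 27.3 to 49.6%). Split peaks had median widths of 1813 and 2098 bp in the 2 stable libraries, against 901 and 966 bp for peaks matched by 1 transient peak and 720 and 792 bp for peaks with none.

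The same shares were then taken against shorter lists. Of stable peaks of 2000 bp or more, 28.7% (77 of 268) and 26.7% (119 of 446) were split by the full transient list. Against the 5862 highest-scoring transient peaks the shares were 11.9% (32 peaks) and 9.19% (41 peaks). They were 2.61% and 2.24% against the other stable 20 ug library, which had fewer close neighbouring peaks than the full transient list. Against stable cells given 2 ug of the guide, a list of 2698 peaks with a median width of 592 bp, they were 4.85% and 3.14%. Over all widths that 2 ug list held a peak in 25.2% and 30.5% of the stable peaks and split 0.336% and 0.375% of them. The 2 ug list was the shortest, and its shares (13 and 14 peaks) were above those against the other stable 20 ug library (7 and 10 peaks). These lists also differed in guide dose and peak width, and the part of list length was not tested. The cut changed the length and the lowest score of the transient list together, and their parts were not tested.

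**Figure D2:**
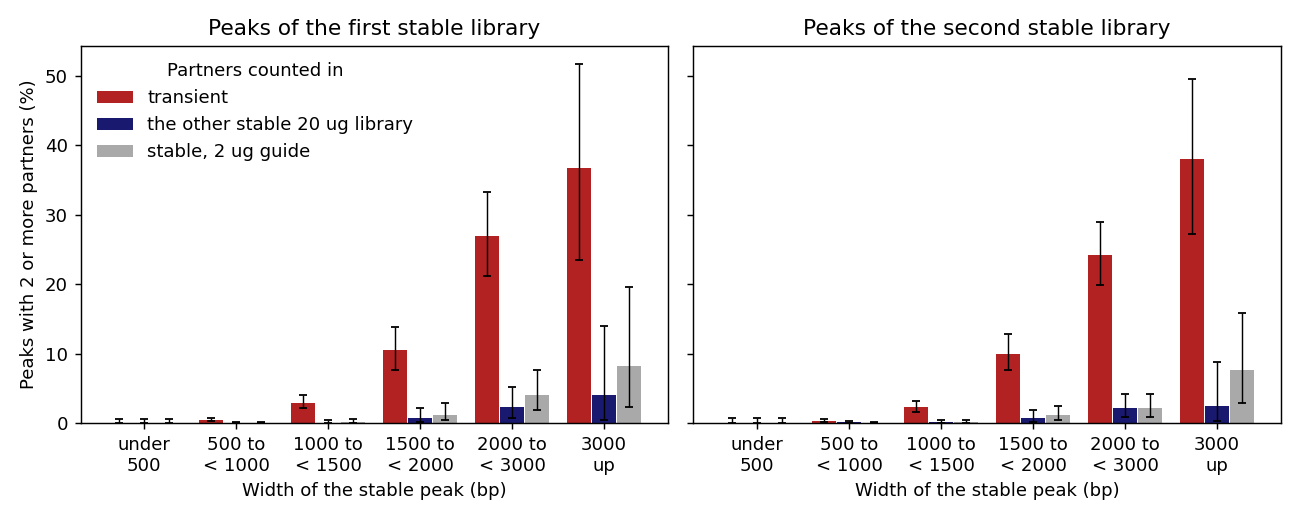
Share of stable 20 ug peaks (%) that overlapped 2 or more peaks of the transient list, of the other stable 20 ug library or of the stable 2 ug library, by width of the stable peak (bp); lines are exact Clopper-Pearson 95% intervals. Against the transient list the share grew with width to 36.7% and 38.0% at 3000 bp or more, and against the other stable library it stayed at 4.08% or below. The stable lists had fewer close neighbouring peaks than the transient list, so these shares are not like measures.

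Transient peaks within split places were few beside the difference in list length, which was 10209.5 peaks over the stable mean. Merged into 8154 regions, the stable lists had a transient peak in 5805 regions and 2 or more in 274, and transient peaks beyond the first in a region numbered 294. By contrast 10021 transient peaks, 62.2% of the list, overlapped no stable peak. They covered 4.14 Mb, scored lower than the 6098 transient peaks that did overlap one (median 78.6 against 126.6) and were narrower (332 against 411 bp). Few of these lay just outside a stable peak: 0.968% were within 500 bp and 9.09% within 5000 bp, and the median distance to the nearest stable peak was 51.8 kb. Merging peaks within 500 bp of each other removed 417 transient peaks, 2.59% of the list, and left the ratio of peak numbers at 2.68.

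Split stable peaks were covered in part by neighbouring transient peaks, often with short gaps. The 358 and 454 transient peaks in the split peaks of the first and second stable library had median widths of 494.5 and 509.5 bp and left median gaps of 148 and 149 bp. Gaps under 100 bp made up 40.8% and 40.4% of all gaps, and gaps of 500 bp or more 22.8% and 22.1%. Together the transient peaks covered a median of 58.1% and 58.4% of the split stable peak, against 46.7% and 47.5% for a stable peak matched by 1 transient peak. Their scores were unequal, with the higher score 1.85 and 1.83 times the next one by the median.

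The split places were shared in part between the stable libraries. Of the first library's split peaks 125 of 174 (71.8%) overlapped a split peak of the second, which is 125 of 219 (57.1%) of the second's, and there were 267 split places in all. Of the 174 split peaks of the first library, 145 had exactly 1 peak in the second, 6 had 2 or more and 23 had none. Of the 219 of the second library, 140 had exactly 1 peak in the first, 9 had 2 or more and 70 had none. Most places split by the transient list were thus single peaks in the other stable library too. At 2 ug of guide 79 and 107 of the split peaks held 1 peak, 12 and 13 held 2 or more, and the other 83 and 99 held none.

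The most divided stable peaks each held 3 transient peaks, which was the case for 10 peaks of the first and 16 of the second library. In both libraries the set included a place on chromosome 4. The transient list divided it into chr4:140669141-140669643 (score 199.03), chr4:140670069-140670275 (148.48) and chr4:140670677-140670905 (62.49). The stable peaks there were chr4:140668888-140671146 (273.88) and chr4:140668533-140672068 (494.42), with widths of 2259 and 3536 bp. The 2 ug library also had separate peaks there, at chr4:140669234-140669562 and chr4:140670357-140671082. The first of these overlapped the first transient peak, and the second overlapped the third.

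Other divided places did not look alike. At chr3:86027401-86029677, a peak of 2277 bp in the first stable library, the strongest of the 3 transient peaks lay in the middle (chr3:86028406-86028779, score 313.27) between flanking peaks that scored 78.05 and 157.59. The only 2 ug peak there overlapped that middle peak. At chr3:51079678-51082015 the middle transient peak was the weakest, at 58.4 between 193.49 and 164.58. The widest stable peak of all, chr10:79609359-79616120 in the second library with 6762 bp, held transient peaks of 2346, 1137 and 463 bp that scored 243.35, 216.48 and 68.2. The first stable library had only chr10:79613636-79614844 there, with a score of 76.86. At chr17:37182100-37185837, a stable peak of the second library that scored 379.18, all 3 transient peaks were near the lowest score listed, at 50.08, 57.76 and 53.44. The first stable library had no peak there.

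**Figure D3:**
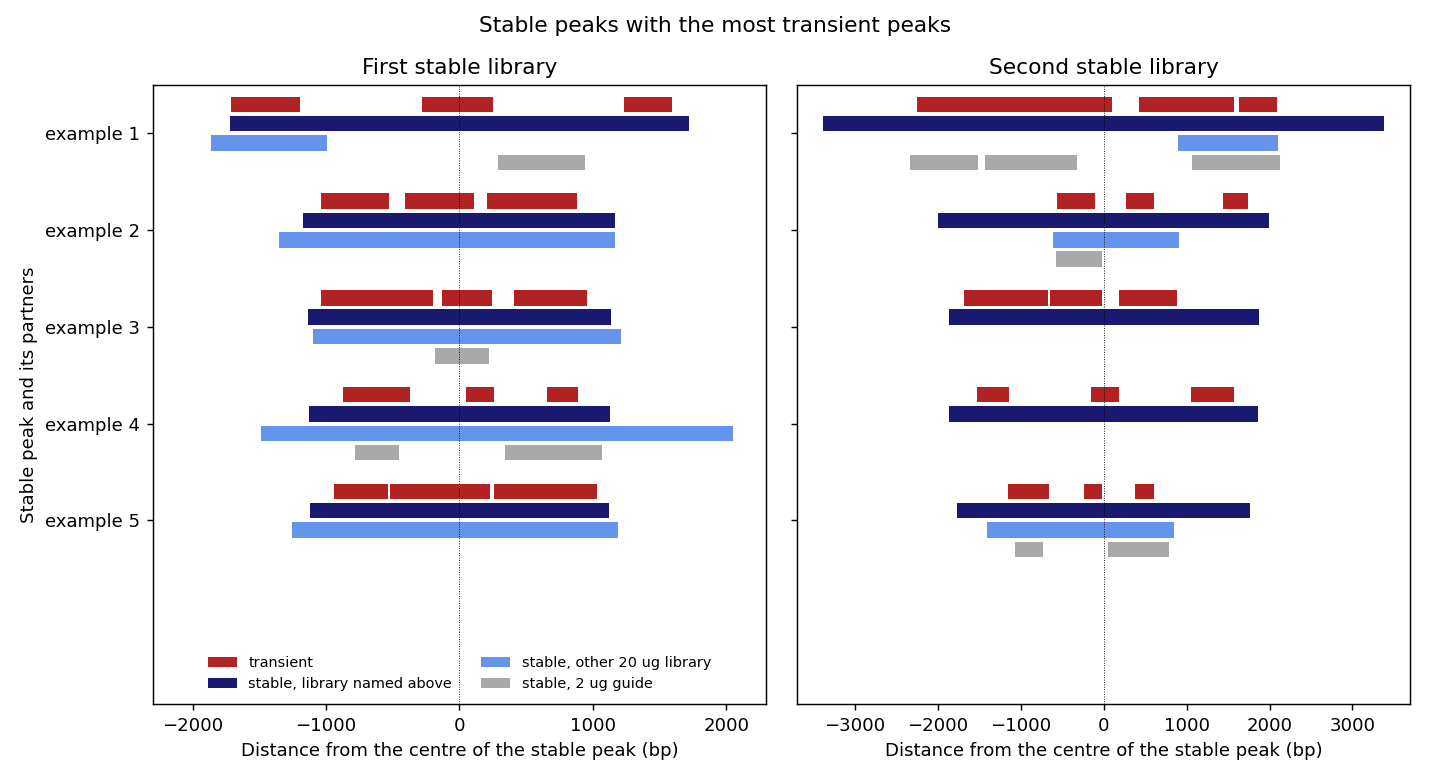
The 5 stable peaks of each library that held the most transient peaks (widest first), drawn as bars by distance from the centre of the stable peak (bp), with the transient peaks above and the other stable 20 ug and the 2 ug peaks beneath. All 10 stable peaks hold 3 transient peaks; the fourth example on the left and the fifth on the right are the place on chromosome 4 with 2 separate peaks at 2 ug.

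Stable peaks were more often present in the full transient list than in the other stable library, and less often in its strongest peaks alone. At 1 bp of overlap 73.3% of the first and 78.7% of the second stable library's peaks were present in the full transient list, against 61.3% and 62.2% in the other stable library. Against the 5862 highest-scoring transient peaks the shares were 48.1% and 51.7%, below those between the stable libraries. That cut also raised the lowest transient score to 109.23, and the parts of length and score were not tested. Presence also followed the score: from the lowest to the highest of 4 equal groups of the second library's scores it was 63.1%, 74.1%, 85.1% and 92.5%, and in the first library 55.2%, 66.4%, 79.3% and 92.1%. In the other direction, over 4 such groups of transient scores, 16.5%, 24.6%, 39.8% and 70.5% of transient peaks overlapped a peak of either stable library, against 37.8% over the whole list.

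Strong positions were shared, and a few were not. The top position was the same in all 3 lists, at chr11:119055453-119056222 in the transient list (770 bp), inside stable peaks of 1383 and 1313 bp. The second strongest transient peak, chr15:101156406-101157102 (score 1238.54), ranked 14 and 2 in the stable libraries. The third, chr2:89226640-89227719, scored 1025.68 but ranked 730 in the first stable library, and in the second it spanned a pair of peaks that ranked 5774 and 1647. It was the 1 transient peak that overlapped 2 peaks of the second stable library. At chr17:36000869-36007029, the widest peak of the first stable library (6161 bp, score 85.82), the second library had a peak of 6094 bp that scored 650.95, and the transient list had 2 peaks, of 1546 and 607 bp, that scored 461.65 and 131.6.

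Among the 100 highest-scoring transient peaks, 6 had no stable peak. They were chr15:81229710-81230836, which ranked 7 with a score of 870.97, chr11:102416879-102417956 (rank 20, 675.67), chr1:90966475-90967269 (rank 46, 572.82), chr12:33638542-33639316 (rank 59, 543.11), chr1:75313271-75314792 (rank 74, 513.05) and chr16:11175592-11176767 (rank 91, 491.72). Their widths were 775 to 1522 bp, against a median of 720.5 bp over the 100 highest-scoring transient peaks. Among the 100 highest of each stable library, 1 had no transient peak. In the second library it was chr17:72223306-72223871, which ranked 77 with a score of 645.95 and was also in the first library, with a score of 124.86.

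In the first stable library the peak with no transient partner was the one at the place where Nanog-sg2, another guide, also had a peak. The peak, chr6:122655719-122658343, ranked 5 and was 2625 bp wide. The closest transient peak to the Nanog-sg2 interval was chr6:122652373-122653284, 2.63 kb away with a score of 139.92, and the closest peak of the second stable library was 112.0 kb away. The first stable list, which has this peak, lacks the sixth column that the transient and second stable lists have. Its name also lacks the word filtered, which the names of those lists carry. The part of these differences in format and label was not tested.

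The transient peaks followed the stable ones over the genome, with 1 chromosome standing apart. In 533 windows of 5 Mb that held a peak, the Spearman rho of transient counts with the stable mean was 0.93, as was that between the stable libraries. The chromosome shares of the transient list differed from those of the first and second stable library by 6.76 and 5.58 percentage points (0.5 times the summed absolute differences), against 2.82 points between the stable libraries. The stable 2 ug library, a list of 2698 peaks at another guide dose, differed from the same 2 libraries by 7.10 and 5.45 points. Counting error adds to this measure, and more so for shorter lists. The values for lists of unlike length are therefore not directly comparable, and the part of counting error was not tested. The ratio of transient peaks to the stable mean had a median of 2.69 over the chromosomes other than 14 and Y, and ran from 2.19 on the X to 3.77 on chromosome 11. On chromosome 14 it was 1.17. The ratio of the second to the first stable library ran from 0.833 to 1.15 over those chromosomes and was 0.981 on chromosome 14. On the Y, 3 transient peaks stood against 1 in each stable library, too few to read.

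Chromosome 14 had 303 transient peaks, against 261 and 256 in the stable libraries. Its share was 1.88% of the transient list (interval 1.68 to 2.10%), against 4.38% (3.88 to 4.93%) and 4.37% (3.86 to 4.92%) of the stable lists and 4.89% at 2 ug of guide. The intervals of the transient share and of both stable shares did not overlap. This was also so on chromosome 11 (9.46 to 10.4%, against 6.33 to 7.64% and 6.73 to 8.09%). On chromosome 8 the intervals were 6.50 to 7.29%, against 4.94 to 6.12% and 5.05 to 6.25%. Chromosome 14 was singled out from these same data and the intervals cover counting error only, so this is not a test. Fewer of the stable peaks on chromosome 14 were present in the transient list, 51.0% (133 of 261) and 52.3% (134 of 256), than on any other chromosome, where the shares ran from 62.7 to 82.4% and from 70.9 to 89.6% with the Y left out. Between the stable libraries chromosome 14 was ordinary, with 60.5% of the first library's peaks there found in the second, against a median of 61.7% elsewhere. Of its peaks found in both stable libraries 67.7% (107 of 158) were in the transient list, against 81.5 to 93.6% elsewhere, and of its 2 ug peaks 53.0%, against 75.9 to 88.6%.

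**Figure D4:**
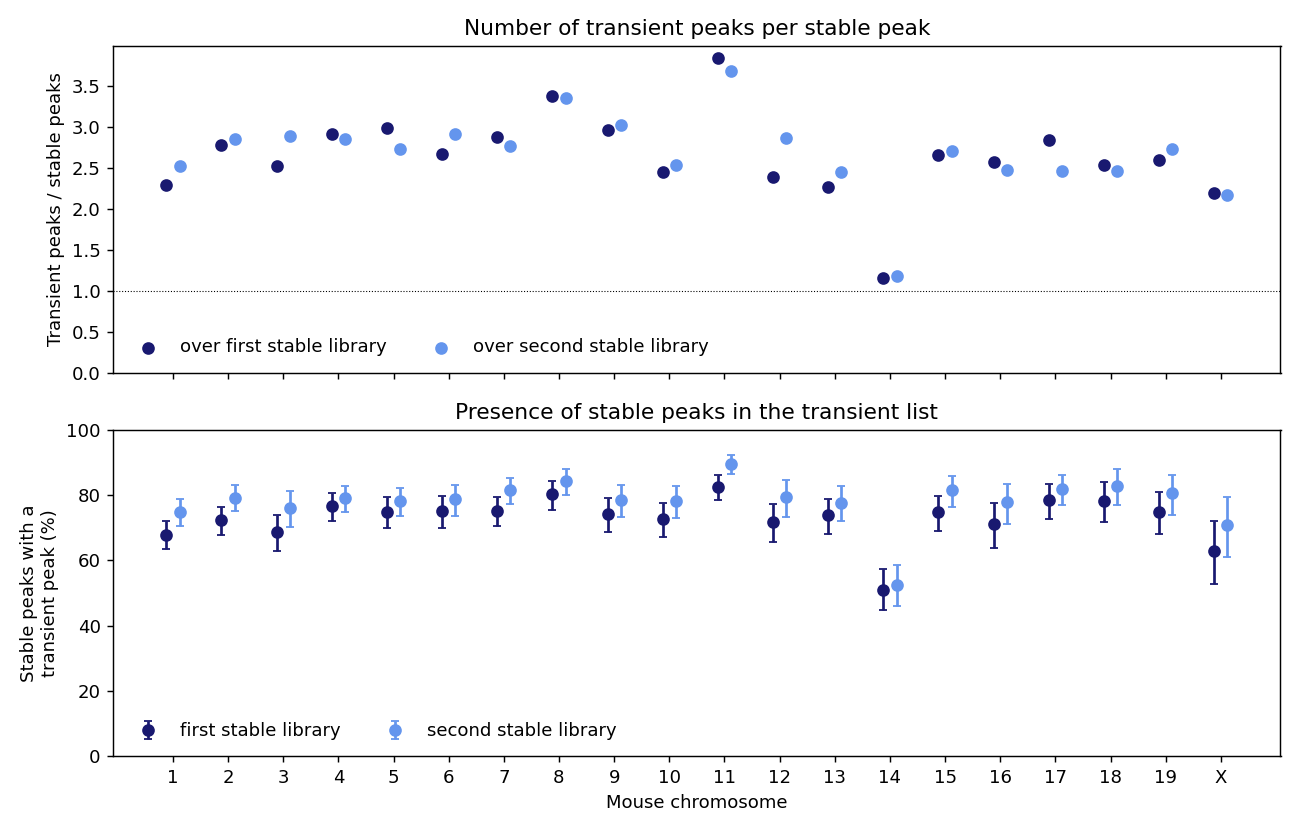
For each mouse chromosome other than Y, top, the number of transient peaks divided by the number of peaks in the first and second stable library; bottom, the share of stable peaks (%) with a transient peak, with exact Clopper-Pearson 95% intervals. Chromosome 14 is lowest in both panels, at a ratio of 1.16 and 1.18 and at 51.0% and 52.3%, and chromosome 11 is highest.

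The low ratio ran along the length of chromosome 14, and it differed most from other chromosomes among weaker peaks. In stretches of 20 Mb the ratio to the stable mean was between 0.978 and 1.53 in all 7 stretches. Among 5 Mb windows with a stable mean of at least 10 peaks, the 11 on chromosome 14 had ratios of 0.889 to 1.73, whereas the 230 windows elsewhere started at 1.5 and only 4 of them were at or below 1.73. Ratios by score range set the same range against each other in different lists, whose common scale is not established, so they are read here between chromosomes only. At scores of 50 to 75 chromosome 14 had 76 transient peaks, against 85 and 60 in the stable libraries, a ratio of 1.05. The chromosomes other than 8, 11, 14 and X had 4243 transient peaks in that range, against 1117 and 681, a ratio of 4.72. At scores of 250 or more chromosome 14 had 17 transient peaks, against 16 and 23, and the ratios were 0.872 on chromosome 14 and 0.884 on those other chromosomes. In the highest of the 4 score groups, 80.4% and 90.9% of the stable peaks on chromosome 14 were present in the transient list, against 92.6% and 92.5% elsewhere. In the lowest group the shares were 31.9% (30 of 94) and 35.48% (33 of 93), against 56.7% and 65.0%. Leaving out chromosome 14 left the ratio of peak numbers at 2.80 and the difference in chromosome shares at 5.03 points on average.

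**Figure D5:**
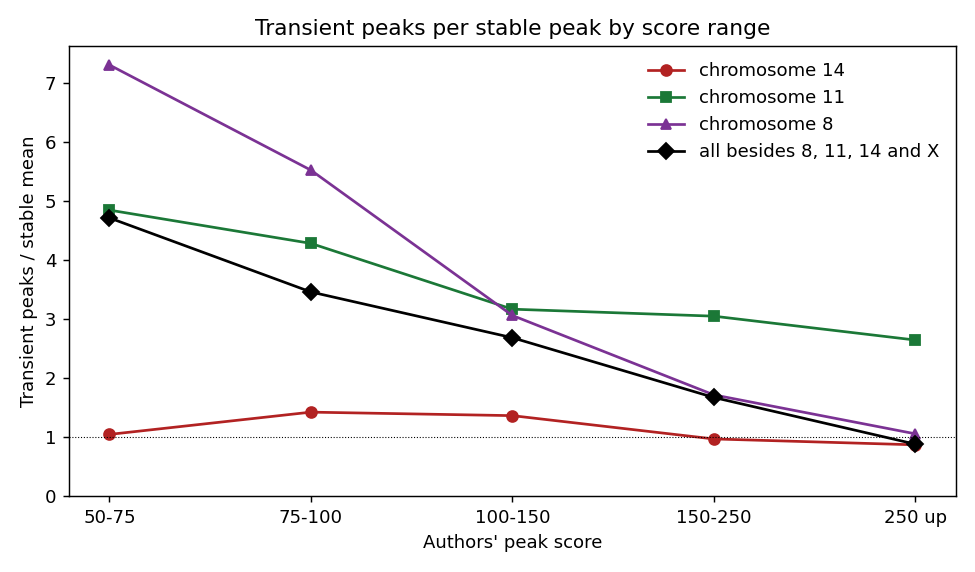
Transient peaks divided by the mean of the 2 stable libraries, by range of the authors' score, for chromosomes 14, 11 and 8 and for the chromosomes other than 8, 11, 14 and X. Chromosome 14 stays between 0.872 and 1.43, while the other lines start at 4.72 or above for scores of 50 to 75; chromosome 11 alone stays above 2 at scores of 250 or more. The X is not drawn, and its ratio was 4.04 at scores of 50 to 75 and 0.545 at 250 or more.

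Chromosomes 11 and 8 lay at the other end. Chromosome 11 held 1599 transient peaks, 9.92% of the list, against 415 and 433 in the stable libraries (6.97% and 7.39%), or 13.1 per Mb against a stable mean of 3.48 per Mb. Its ratio was also above that of the other chromosomes among strong peaks, at 2.65 at scores of 250 or more (98 transient peaks, against 31 and 43). Presence of its stable peaks in the transient list was the highest of all chromosomes besides the Y, at 82.4% and 89.6%, and its transient peaks were the widest by median, at 402 bp. Chromosome 8 held 1110 transient peaks, against 328 and 330 in the stable libraries, a ratio of 3.37. At scores of 50 to 75 its ratio was 7.31, against 4.72 on the chromosomes other than 8, 11, 14 and X. At 250 or more it was 1.06, against 0.884 on those chromosomes. Among 5 Mb windows with a stable mean of at least 10 peaks, 4 of the 5 with the highest ratios were on chromosome 11. The highest was 60 to 65 Mb, with 68 transient peaks against 14 and 12.

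Over all scores, the X chromosome and chromosome 13 were next to chromosome 14 at the low end. The X held 224 transient peaks, against 102 and 103 in the stable libraries, a ratio of 2.19, and chromosome 13 held 612, against 270 and 250, a ratio of 2.35. On the X the ratio was 4.04 at scores of 50 to 75. It was 0.875 at 150 to 250 (21 transient peaks, against 21 and 27) and 0.545 at 250 or more (6, against 6 and 16). In these last ranges it was below that of chromosome 14, at 0.971 and 0.872, on few peaks. With scores of at least 100 the ratio was 1.42 on the X and 1.14 on chromosome 14, but 2.54 on chromosome 13, against 1.91 over all chromosomes. The X had the narrowest peaks outside the Y in all 3 lists, with medians of 326.5 bp in the transient list and 698 and 811 bp in the stable lists.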

How the data were processed

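Reads were mapped with Bowtie to mm9, per the submitters' processing notes, with no version stated. Peak names in the deposited files start with MACS, a peak-calling program, and no header or label states its version, control library or threshold. The names of the transient, transient input and second stable lists carry the word filtered, and that of the first stable list does not. What filter was meant is not stated. The authors gave every peak a score on an unstated scale, 50.01 at the lowest; the score was used to describe and rank peaks within a list, and the same ranges and the same minimum were also applied to all lists, although a common scale is not established. An unexplained sixth column in some lists was left aside. Start positions are written 1-based, on the reading that the files are 0-based.

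Samples were grouped by the labels, the library titled 20ug being the second stable library. Overlaps, widths, gaps and shares were computed in Python 3.11.15 with numpy 2.4.6, pandas 2.3.3 and scipy 1.17.1, and the overlap counts were checked on 337 simulated intervals against a direct count and bedtools 2.31.1, with 0 mismatches. An overlap of 1 bp or more made a peak shared. Named positions are the 5 highest and 5 widest peaks of each IP list, the 5 stable peaks per library with the most transient peaks, peaks among the 100 highest with no partner in the other arm, the input peaks, the position shared with the Nanog-sg2 list, and the chromosomes with the 3 highest and 3 lowest ratios. The question, lists and positions were chosen with earlier results of these data known. Without an mm9 sequence or annotation in use, no peak was assigned to a gene. Windows of 5 and 20 Mb, score ranges and the set without chromosome 14 were chosen after the data had been seen. Alternatives were a minimum score of 100, merging within 500 bp, 50% of both peaks or centres within 200 bp as overlap, an equal list length, and leaving out each stable library.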

Additional observations from a re-analysis of the deposited data

How the results depend on the processing

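With scores of at least 100, merging within 500 bp and no chromosome 14, the ratio of peak numbers was 1.91, 2.68 and 2.80, against 2.73. At equal list length the width difference was -467.5 bp, against -537.5 bp. The mean share of stable peaks with a transient peak, 76.0%, was 65.9% with scores of at least 100, 31.9% with 50% of both peaks shared, 63.5% with centres within 200 bp and 49.9% at equal list length. Under the same 4 settings the share of transient peaks in either stable list, 37.8%, was 45.2%, 17.8%, 31.8% and 62.4%. The mean share of split stable peaks, 3.33%, was 1.76% with scores of at least 100, 1.14% after merging and 1.07% at equal list length. The difference in chromosome shares, 6.17 points, was 10.0 with scores of at least 100, 7.90 at equal list length and 5.03 without chromosome 14. Leaving out 1 stable library gave ranges of 2.71 to 2.75 for the ratio, -581 to -494 bp for the width difference, 73.3 to 78.7% and 28.2 to 30.1% for the shares, 2.92 to 3.74% for splitting and 5.58 to 6.76 points for the chromosomes. The cause of these shifts was not tested. The ratio of peak numbers stayed above 1 and the width difference below 0 under these settings. At equal list length 2 orders turned: the transient list covered 3.09 Mb, against a stable mean of 6.05 Mb, and held 48.1% and 51.7% of the stable peaks, against 61.3% and 62.2% between the stable libraries. No paired analysis was possible because the labels give the libraries no shared replicate numbers. The transient arm is 1 library, depth is unknown, and differences between the lists' filters cannot be told apart from differences between the arms.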

Other observations

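The level of the authors' scores varied between chromosomes, and differently in each list. With the Y left out, median scores ran from 83.7 on the X to 112 on chromosome 12 in the transient list. With chromosome 14 and the Y left out, they ran from 92.1 on chromosome 19 to 141 on chromosome 4 in the first stable list, and from 106 on chromosome 12 to 179 on chromosome 19 in the second. Chromosome 19 was thus the lowest of these in the first stable library and the highest in the second. On chromosome 14 the medians were 99.5 in the transient list and 91.2 and 113 in the stable lists. Ranges of score compared between chromosomes carry these differences, and their part in the counts by score was not tested.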
